A study of Homo sapiens with 12 samples.

Results

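Control HK2 cells grown for a long time were compared with control HK2 cells grown for a short time, to see what goes with culture alone. The comparison holds 6 of the 12 libraries of the series, chosen by their labels: the 3 long-term nontarget and the 3 short-term nontarget libraries (shControl, replicates 1 to 3 each). HK2 (HK-2) is an immortalized line of human kidney proximal tubule cells. Both groups had the genotype given as WT and carried a short hairpin RNA (shRNA) directed against no target, and both grew in DMEM with 10% fetal bovine serum. Short-term cells were harvested at fewer than 30 passages, and long-term cells after more than 120 passages by the labels (the study's methods give a lower limit for long-term knockdown, counted from clonal selection), about a year of growth. The cells were stable clones selected for the hairpin. Which clone gave each library is not stated, so that time in culture and clone cannot be told apart. The other 6 libraries came from HK2 cells with shRNA against FLCN, the tumour suppressor folliculin, grown for the same short and long times. They were used as a second population that was grown long and to estimate the spread between libraries.

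Totals ran from 6284233 to 7279890 counts of reads per gene in the short-term and from 6262665 to 7592062 in the long-term nontarget libraries. Levels are in CPM, the counts of a gene per 1000000 counted reads, which compare 1 gene between libraries, not genes with each other. A log2 fold change is long-term minus short-term throughout, with its standard error (SE), and adjusted p-values are from the quasi-likelihood test of edgeR, with the Benjamini-Hochberg procedure applied over 13959 genes. A gene rose or fell where its adjusted p was below 0.05. The labels call the replicates biological, without saying that they came from separate cultures, so the p-values measure the spread between these libraries. In bulk RNA, fewer cells of a kind and less RNA per cell cannot be told apart.

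Proximal tubule cells reabsorb most of what the kidney filters, through apical receptors and solute carriers, and lose much of this programme when grown on plastic. Cells passaged for long periods can also change in chromosome number, in matrix and adhesion genes, and in the basal activity of the interferon system, in which a tonic type I interferon signal keeps antiviral genes at a low level. These are background, and the values below are described without a cause.

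FLCN, the gene targeted in the knockdown cells, had 12.7, 16.7 and 16.5 CPM in the short-term libraries and 9.92, 11.9 and 12.2 CPM in the long-term libraries, a difference that did not pass the test (log2 fold change −0.43 with SE 0.165, adjusted p = 0.139 in edgeR; adjusted p 0.0716 to 0.387 over the alternatives). All 6 of these libraries lay above the FLCN knockdown libraries, which had 5.95, 6.58 and 5.66 CPM short-term and 6.702, 6.31 and 7.97 CPM long-term. The label of proximal tubule cells held only in part. PAX8, a transcription factor of the renal epithelium, had 3295 counts summed over the short-term and 5434 over the long-term libraries. GGT1, DPP4 and the glucose carrier SLC5A2 were also present in both groups, with 855, 2171 and 220 counts short-term and 790, 2392 and 219 counts long-term. The defining markers LRP2 (megalin), SLC22A6, SLC22A8, ALPL and HNF4A had 0 counts in all 6 libraries, and CUBN, SLC34A1, AQP1 and ANPEP had at most 6 counts in a group. Of the markers of other cell types, PTPRC of leukocytes, KDR and EMCN of endothelium, NPHS1 of podocytes, UMOD and SLC12A1 of the loop of Henle and COL1A2 of fibroblasts had 0 counts. Other members of the same lists were present. Of 9 fibroblast markers, COL1A1 (448 counts short-term and 407 long-term), LUM (477 and 20), PDGFRB (81 and 163) and THY1 (19 and 39) were above 2 counts in a group, and COL3A1, DCN, PDGFRA and FAP were not. Of 9 endothelial markers, VWF (6 and 29), ESAM (20 and 44) and PECAM1 (10 and 4) had the most counts. Of the podocyte markers, PODXL (1250 and 744), SYNPO (1243 and 1454) and PLA2R1 (69 and 59) were present. Their part in the results was not tested.

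Few genes differed by much between the nontarget groups. Genes are called here where they passed adjusted p and differed 2-fold or more, and 161 were higher (1.15% of those tested) and 239 lower (1.71%) in long-term nontarget cells, 400 in all (2.87%). Whatever the fold, 1054 genes passed adjusted p (7.55%), 443 of them higher (3.17%) and 611 lower (4.38%). The long-term libraries lay wholly above the short-term libraries for 12.1% of genes and wholly below them for 13.6%. Of the 400 genes, 147 higher and 213 lower ones were protein-coding, and 7 and 8 were lincRNAs. Of the 400, 289 had a mean below 10 CPM over the 12 libraries, and a fit of the 9363 genes at 10 CPM or more called 112. The share of all genes that rose (3.17%) or fell (4.38%) is the background of every list count given below. The count of 1054 genes past adjusted p was 581 without short-term replicate 1 and 645 without short-term replicate 2.

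**Figure D1:**
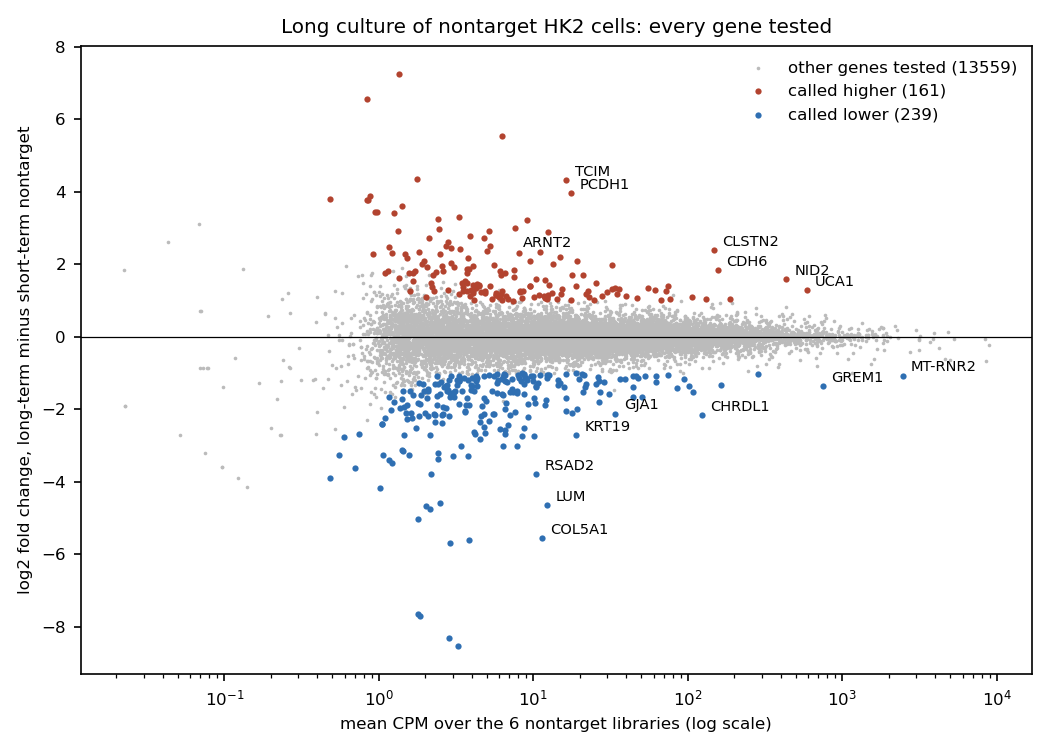
Log2 fold change, long-term minus short-term nontarget cells, against mean CPM over the 6 nontarget libraries on a log axis, with 1 point per gene tested. The 161 genes called higher are red, the 239 called lower blue, and the genes of highest level among the called ones, MT-RNR2, GREM1, UCA1 and NID2, changed by −1.07, −1.36, 1.29 and 1.60 on the log2 scale.

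The largest falls among genes of at least 50 mean counts were in 2 genes of the collagen fibril. COL5A1 (chr9:134641774-134844843, GRCh38), the chain of type V collagen that starts and limits fibrils, had 17.9, 19.4 and 29.7 CPM in the short-term libraries and 0.268, 0 and 1.04 CPM in the long-term libraries (log2 fold change −5.54 with SE 0.520, adjusted p = 8.45e-06 in edgeR). LUM (chr12:91102629-91111831), encoding the fibril-binding proteoglycan lumican, had 23.8, 27.3 and 19.3 CPM in the short-term libraries and 1.07, 1.55 and 0.259 CPM in the long-term libraries (log2 fold change −4.64 with SE 0.363, adjusted p = 5.55e-07 in edgeR). In both genes every long-term library was near 0 and lay far below every short-term library. COL5A1 fell to 10 counts over the 3 long-term libraries, against 448 short-term. KRT19 (chr17:41523617-41528308), a keratin of simple epithelia, had 39.2, 28.7 and 30.3 CPM in the short-term libraries and 4.02, 6.66 and 4.53 CPM in the long-term libraries (log2 fold change −2.704 with SE 0.217, adjusted p = 4.69e-07 in edgeR). CHRDL1 (chrX:110673856-110795819), a secreted antagonist of BMPs, had 188, 205 and 213 CPM in the short-term libraries and 44.2, 50.3 and 41.01 CPM in the long-term libraries (log2 fold change −2.16 with SE 0.140, adjusted p = 4.63e-08 in edgeR). GJA1, which forms the connexin 43 gap junction, had 53.3, 54.2 and 58.3 CPM in the short-term libraries and 15.7, 13.01 and 9.57 CPM in the long-term libraries (log2 fold change −2.12 with SE 0.159, adjusted p = 2.98e-07 in edgeR). KRT19 and GJA1 varied within the long-term group, less than the groups differed, and the choice of genes required groups that do not overlap.

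Among other large falls, NTNG1, a netrin anchored at the membrane, fell from 14.7 ± 1.26 to 2.17 ± 1.22 CPM (log2 fold change −2.73), and KCNJ15, a potassium channel of the proximal tubule, from 17.5 ± 1.47 to 2.65 ± 0.779 CPM (−2.72). ANGPTL4, the secreted inhibitor of lipoprotein lipase, fell from 14.9 ± 1.597 to 2.598 ± 1.68 CPM (−2.498), and ATP9A, a phospholipid flippase of endosomes, from 15.2 ± 0.960 to 3.25 ± 0.598 CPM (−2.22). The antiviral genes RSAD2 and IFI44L are described with their list below. All errors are SD over 3 libraries, and each of these falls kept an adjusted p below 0.05 in each of the 6 fits that left out 1 nontarget library.

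The largest rise of a gene with at least 50 mean counts was in TCIM, a small regulatory protein first described in thyroid cancer, with 1.504, 1.21 and 1.89 CPM in the short-term libraries and 37.5, 28.3 and 27.6 CPM in the long-term libraries (log2 fold change 4.33 with SE 0.239, adjusted p = 4.63e-08 in edgeR). PCDH1 (chr5:141853111-141879246), a protocadherin of epithelial junctions, had 1.37, 2.43 and 2.51 CPM in the short-term libraries and 29.3, 35.3 and 34.03 CPM in the long-term libraries (log2 fold change 3.97 with SE 0.206, adjusted p = 6.56e-09 in edgeR). The lowest long-term library exceeded the highest short-term library in both genes. CLSTN2 (chr3:139935185-140577397), a calsyntenin of the cadherin superfamily, was already expressed in short-term cells, with 44.6, 38.3 and 59.2 CPM in the short-term libraries and 257, 232 and 257 CPM in the long-term libraries (log2 fold change 2.39 with SE 0.138, adjusted p = 1.79e-08 in edgeR). Its groups were far apart beside their own spread.

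Other large rises were in ARNT2, a partner of bHLH-PAS transcription factors (from 1.695 ± 0.895 to 13.5 ± 1.76 CPM, log2 fold change 2.99), the transcribed pseudogene WFDC21P (2.897), the matrix glycoprotein EMILIN2 (2.34), the sorting receptor SORL1 (from 2.72 ± 1.15 to 13.4 ± 1.69 CPM, 2.32), LIMCH1, an activator of non-muscle myosin (2.203), the ganglioside sialyltransferase ST6GALNAC5 (2.099), SMTNL2 of the smoothelin family (2.08), and SRRM3, a splicing factor of neural microexons (2.01). Each of these rises passed the test in all 6 fits without 1 library. ARNT2 overlaps other annotated genes, as do CLSTN2 and SORL1, and whether the counting used strand is not stated.

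**Figure D2:**
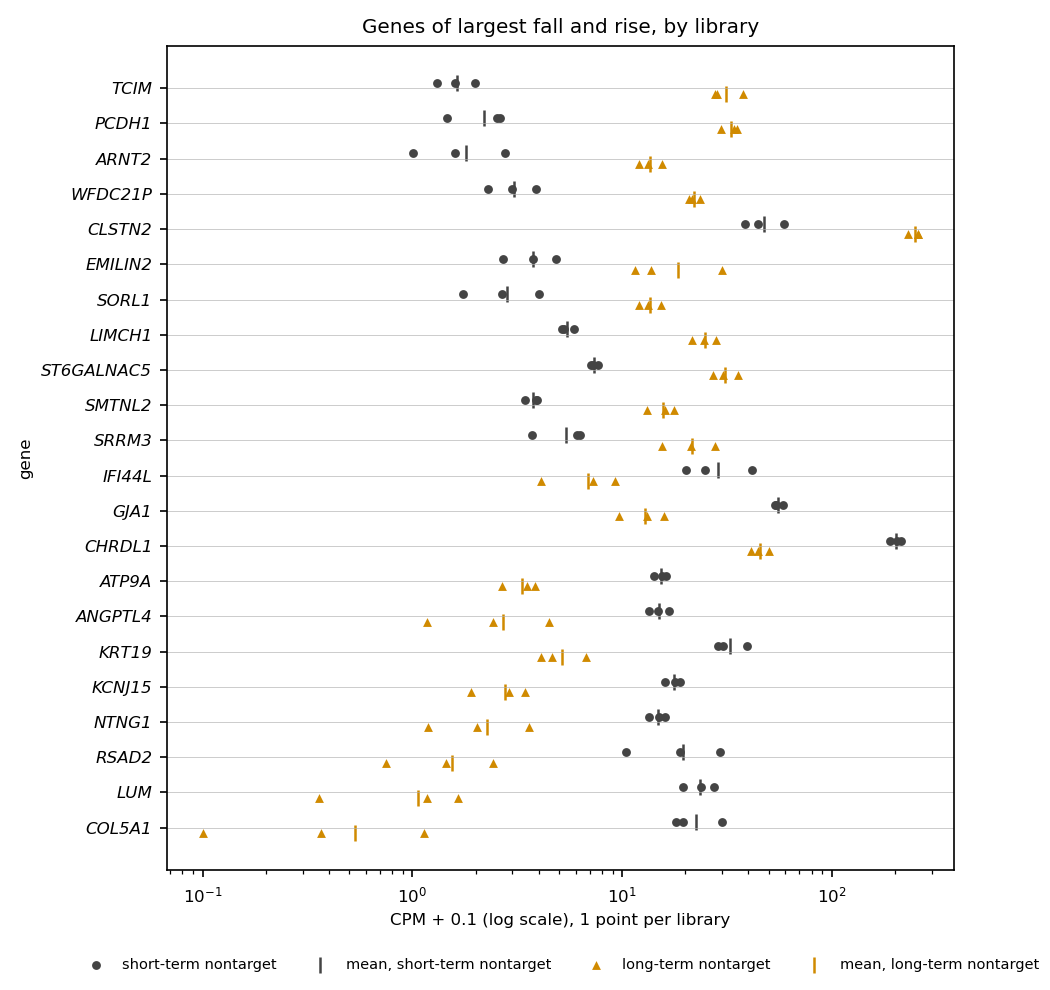
CPM plus 0.1 on a log axis for 11 of the largest rises (top) and 11 of the largest falls (bottom), with 1 point per library, circles for short-term and triangles for long-term nontarget cells, and vertical ticks for the group means. The groups do not overlap in any of the 22 genes, which the choice of genes required, and COL5A1 has a long-term library at 0 CPM.

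By absolute level, other genes moved more RNA. GREM1 (chr15:32717974-32745107), gremlin, which binds and blocks BMPs, had 1123, 1066 and 1036 CPM in the short-term libraries and 410.1, 410.1 and 439 CPM in the long-term libraries (log2 fold change −1.36 with SE 0.0946, adjusted p = 1.30e-07 in edgeR). UCA1, a long noncoding RNA of urothelial cancers, rose from 342 ± 65.4 to 835 ± 49.2 CPM (log2 fold change 1.29 with SE 0.122, adjusted p = 3.42e-06 in edgeR). NID2, nidogen of the basement membrane, rose from 214 ± 62.3 to 651 ± 205 CPM (log2 fold change 1.604 with SE 0.258, adjusted p = 0.00103 in edgeR), CDH6 (K-cadherin of the embryonic tubule) from 67.7 ± 18.01 to 244 ± 45.2 CPM (1.85), and the metalloprotease ADAMTS12 from 122.95 ± 11.9 to 254 ± 20.03 CPM (1.05). TFPI2, a secreted inhibitor of serine proteases, fell from 235 ± 78.8 to 93.3 ± 28.8 CPM (log2 fold change −1.33 with SE 0.267, adjusted p = 0.00568 in edgeR). With no filter on low counts the adjusted p of TFPI2 was 0.086, and its fall then did not pass.

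Genes induced by type I interferon were lower as a group in long-term cells. Their promoters often hold the interferon-stimulated response element, bound by factors of the IRF family and their partners. Its core was searched as GAAA, any 2 bases and GAAA on both strands within 250 bases before and 50 after each start (RefSeq promoters, GRCh38.p14). At least 1 promoter held it for 1195 of 27305 genes (4.38%). Of the 26 listed interferon-stimulated genes that fell, 21 had a promoter in the table and 16 of these held it (76.2%). Of the 21 listed genes tested that did not pass, 17 had a promoter and 12 held it (70.6%), a similar share. The stretches of 4 of the genes that fell are shown because they hold the match, in capitals. Each is written along the gene's strand, and in RSAD2 the match itself lies on the opposite strand.
RSAD2 (chr2:6877622-6877651, plus strand): ctgtttcaacTTTCAGTTTCacatgtggaa
OAS3 (chr12:112938452-112938481, plus strand): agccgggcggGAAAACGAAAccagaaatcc
DDX60 (chr4:168318821-168318850, minus strand): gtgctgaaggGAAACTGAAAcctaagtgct
SAMD9 (chr7:93118096-93118125, minus strand): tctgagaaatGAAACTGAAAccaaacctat

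Of 58 listed interferon-stimulated genes 47 were tested, of which 26 fell by edgeR and 27 by DESeq2, against 4.38% of all genes by edgeR. By both tools 0 rose, also at an unadjusted p below 0.05. Their median log2 fold change was −0.75, against 0.01 for all genes tested, and 45 of the 47 had a negative value. For 31 of the 47 the long-term libraries lay wholly below the short-term libraries, as for 13.6% of all genes. RSAD2 (chr2:6865806-6898239), viperin, which makes a chain-terminating ribonucleotide, had 18.9, 29.3 and 10.4 CPM in the short-term libraries and 1.34, 2.32 and 0.647 CPM in the long-term libraries (log2 fold change −3.79 with SE 0.521, adjusted p = 2.87e-04 in edgeR). CMPK2, its neighbour and a mitochondrial nucleotide kinase, had 7.24, 9.11 and 7.38 CPM in the short-term libraries and 1.21, 1.39 and 0.776 CPM in the long-term libraries (log2 fold change −2.81 with SE 0.327, adjusted p = 3.03e-05 in edgeR). The 2 genes overlap, so their reads can be told apart only in part. IFI44L had 24.6, 41.5 and 19.95 CPM in the short-term libraries and 9.11, 7.12 and 4.01 CPM in the long-term libraries (log2 fold change −2.09 with SE 0.359, adjusted p = 0.00175 in edgeR). OASL, a relative of the oligoadenylate synthetases, had 35.1, 38.9 and 18.7 CPM in the short-term libraries and 10.2, 11.9 and 10.5 CPM in the long-term libraries (log2 fold change −1.51 with SE 0.234, adjusted p = 4.90e-04 in edgeR). All 4 genes were lower in every long-term library than in any short-term library.

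Of the other members, OAS3 and DDX60 were chosen after their values were seen. OAS3, which makes the activator of RNase L, had 171, 230.2 and 130.4 CPM in the short-term libraries and 86.3, 105 and 102 CPM in the long-term libraries (log2 fold change −0.86 with SE 0.152, adjusted p = 0.00157 in edgeR). The RNA-binding helicase DDX60 fell from 64.9 ± 12.95 to 29.6 ± 3.11 CPM (log2 fold change −1.13 with SE 0.234, adjusted p = 0.00648 in edgeR). SAMD9, of a family that restricts viruses, fell from 25.02 ± 8.46 to 12.5 ± 0.749 CPM (log2 fold change −1.0003 with SE 0.224, adjusted p = 0.00962 in edgeR) but did not pass without short-term replicate 2 (adjusted p by edgeR = 0.0756). Its neighbour SAMD9L had 98 counts over the short-term and 4 over the long-term libraries. The falls of the 26 genes ran from −0.67 to −4.58. Of 20 listed genes of antigen presentation by MHC class I, 0 passed by edgeR and 1 rose by DESeq2. At an unadjusted p below 0.05 there were 3 of the 20, against 2705 of all 13959 genes tested.

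The short-term libraries were not alike in these genes. Measured against the short-term mean, the median over the 47 genes was −0.0093, 0.41 and −0.36 log2 units in short-term and −0.66, −0.54 and −0.86 in long-term replicates 1 to 3. Short-term replicate 2 was the highest short-term library for 40 of the 47 genes and short-term replicate 3 the lowest for 42, while long-term replicate 3 was the lowest of the long-term libraries for 31. The 26 falls became 15 without short-term replicate 1, 10 without short-term replicate 2, 16 without long-term replicate 1 and 12 without long-term replicate 3, and 9 genes fell in all 6 fits without 1 library. In FLCN knockdown cells, which share no library with this comparison, 44 of the 47 genes were lower on long culture, and 21 of the 26 fell there too, where 15.2% of all genes fell. The difference between the populations passed the test for 8 of the 47 (13.4% of all genes). With the replicate number as a block the difference passed for 18 of the 47, and for 2879 of all 13959 genes tested.

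**Figure D3:**
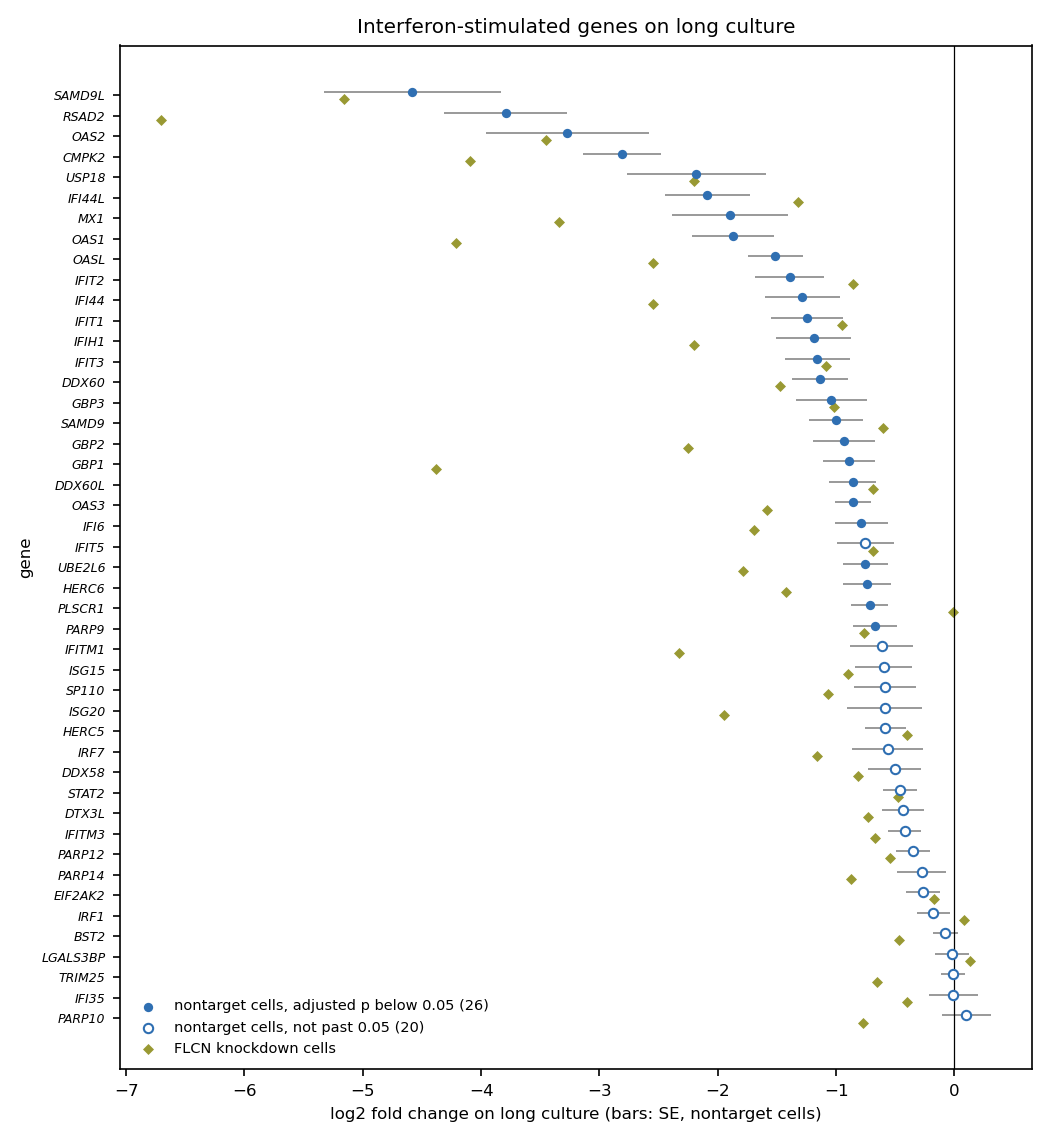
Log2 fold change on long culture for 46 of the 47 interferon-stimulated genes tested, with circles and SE bars for nontarget cells (filled where the adjusted p was below 0.05, 26 genes) and diamonds for FLCN knockdown cells. Nearly all points lie left of 0, with SAMD9L at −4.58 and RSAD2 at −3.79 the lowest in nontarget cells.

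Transcripts of the mitochondrial genome were lower too. Of its 13 protein genes, which encode core subunits of the respiratory chain and ATP synthase, 8 fell, where 4.38% of all genes fell, with a median log2 fold change of −0.61. MT-ND6, of complex I and the only one on the light strand, had 381, 408 and 352 CPM in the short-term libraries and 201, 178 and 186 CPM in the long-term libraries (log2 fold change −1.02 with SE 0.126, adjusted p = 5.85e-05 in edgeR). MT-ND5 fell from 1532 ± 96.3 to 776 ± 83.8 CPM (log2 fold change −0.98 with SE 0.134, adjusted p = 1.48e-04 in edgeR) and MT-CO1, of complex IV, from 10389 ± 202 to 6577 ± 856 CPM (log2 fold change −0.66 with SE 0.133, adjusted p = 0.00448 in edgeR). The large ribosomal RNA MT-RNR2 fell from 3327 ± 60.1 to 1589 ± 178 CPM (log2 fold change −1.07 with SE 0.155, adjusted p = 2.87e-04 in edgeR). Over all 21 mitochondrial genes tested, 14 fell, and the per-library medians were 0.030, −0.025 and −0.0059 log2 units in short-term and −0.46, −0.78 and −0.79 in long-term cells, relative to the short-term mean, so long-term replicate 1 stood nearest to the short-term cells. The 8 falls became 4 without short-term replicate 1, 3 without long-term replicate 2 and 4 without long-term replicate 3, and MT-ND6, MT-ND5 and MT-CO1 fell in all 6 fits. In FLCN knockdown cells the same 13 protein genes had a median of 0.010 on long culture. There 1 rose and 2 fell, where 11.5% of all genes rose and 15.2% fell. The difference between the populations passed the test for 6 of the 13 (13.4% of all genes). Nuclear genes for the respiratory chain gave other counts, 2 of 79 rising (SDHA and NDUFS6, both in the stretch of chromosome 5 described below), 1 falling and a median of −0.050. Of 84 cytosolic ribosomal protein genes, 1 rose. The fall (ATP5MPL) passed in 0 of the 6 edgeR fits without 1 library and this rise (RPL37) in 1.

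Of 25 fibrillar collagen genes and partners tested, 1 rose and 5 fell (of all genes 3.17% rose and 4.38% fell), with a median of 0.034, and the falls became 3 without long-term replicate 2 and 3 without long-term replicate 3. Beside COL5A1 and LUM, the collagen crosslinking enzyme LOXL1 fell from 31.2 ± 0.766 to 12.5 ± 3.81 CPM (log2 fold change −1.31 with SE 0.270, adjusted p = 0.00648 in edgeR), while PLOD2, which hydroxylates collagen lysines, rose from 180.2 ± 7.34 to 292 ± 26.1 CPM (log2 fold change 0.70 with SE 0.114, adjusted p = 7.42e-04 in edgeR). FN1 and SPARC, chosen for their high counts, did not pass, with 31978 and 29728 counts short-term and 35484 and 35771 long-term. Of 21 basement membrane genes, NID2 rose and LAMA1, a laminin chain, fell from 98.6 ± 31.7 to 55.3 ± 9.27 CPM (log2 fold change −0.83 with SE 0.177, adjusted p = 0.00704 in edgeR), with a second fall (COL4A5) that did not pass without short-term replicate 2 or without long-term replicate 3. The 1 basement membrane rise became 3 without short-term replicate 3, 2 without long-term replicate 1 and 3 by DESeq2. The 2 falls became 3 without long-term replicate 2. Among 41 matrix proteases and inhibitors 5 rose and 5 fell. ADAMTS5, an aggrecanase, rose from 2.26 ± 0.741 to 8.902 ± 0.647 CPM (log2 fold change 1.99 with SE 0.273, adjusted p = 1.48e-04 in edgeR), and PLAU, urokinase, fell from 355 ± 24.6 to 203 ± 24.6 CPM (log2 fold change −0.81 with SE 0.133, adjusted p = 8.14e-04 in edgeR). The 5 rises became 2 without short-term replicate 1, 2 without short-term replicate 2, 2 without short-term replicate 3 and 2 without long-term replicate 3, and the 5 falls 3 without short-term replicate 1, 3 without short-term replicate 3 and 3 without long-term replicate 2.

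Of 29 cadherins and protocadherins tested 7 rose and 1 fell, where 3.17% of all genes rose and 4.38% fell, and 5 of the rises were kept in all 6 fits without 1 library. The members as a whole were spread to both sides, 15 positive and 14 negative with a median of 0.17. Their per-library median, relative to the short-term mean, was higher in short-term replicate 3 (0.23) than in any long-term library (0.024 to 0.13). Beside PCDH1, CLSTN2 and CDH6, these included CDH2 (N-cadherin), from 207 ± 13.8 to 279 ± 19.9 CPM, which did not pass without short-term replicate 2 (adjusted p by edgeR = 0.0727 there). PCDHGA7 fell from 8.44 ± 1.33 to 1.35 ± 0.387 CPM (log2 fold change −2.64 with SE 0.304, adjusted p = 2.79e-05 in edgeR), but it shares its last exons with the other genes of its cluster. Of 35 genes of epithelial junctions and keratins, 3 rose and 1, KRT19, fell. The rises became 1 without short-term replicate 2 and 1 without long-term replicate 3, with CDH6 kept in all 6 fits. Of 32 mesenchymal and contractile genes 4 rose and 3 fell. THBS2, a thrombospondin of the matrix, rose from 44.2 ± 8.32 to 90.2 ± 2.93 CPM (log2 fold change 1.03 with SE 0.158, adjusted p = 4.48e-04 in edgeR), and NT5E, the surface enzyme CD73, fell from 123.3 ± 4.88 to 62.4 ± 2.75 CPM (log2 fold change −0.98 with SE 0.103, adjusted p = 9.96e-06 in edgeR). The 4 rises became 2 without short-term replicate 1, 1 without short-term replicate 2 and 2 without long-term replicate 3. Of 19 integrin genes 2 fell, neither of them in all 6 fits.

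Of 17 kidney epithelial transcription factors tested 2 rose, with a median of 0.31. PAX8 had 162, 177 and 148 CPM in the short-term libraries and 229.8, 254 and 269 CPM in the long-term libraries (log2 fold change 0.63 with SE 0.103, adjusted p = 7.55e-04 in edgeR). It was higher in every long-term library, as were 12.1% of all genes, and passed in all 6 fits. Of 52 listed genes of proximal tubule transport and metabolism only 15 had enough counts to be tested, of which 1 rose and 3 fell, none of them in all 6 fits. Of the marker lists, CALB1, calbindin of the distal tubule and the 1 of 10 loop and distal markers tested, had 21 counts in short-term and 89 in long-term cells (log2 fold change 1.96, adjusted p by edgeR = 0.00432). The podocyte marker PODXL fell from 61.5 ± 8.36 to 34.1 ± 4.44 CPM (log2 fold change −0.85 with SE 0.188, adjusted p = 0.00881 in edgeR), but did not pass without short-term replicate 2 or without long-term replicate 2. Of the 6 injured tubule markers tested KRT19 fell and CD24 rose (log2 fold change 0.56 with SE 0.144, adjusted p = 0.0208 in edgeR), the latter in 2 of the 6 fits without 1 library. HAVCR1, the kidney injury molecule, had 2947 counts short-term and 2942 long-term.

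Genes of several signalling pathways were listed. WNT5A, a ligand of noncanonical WNT signalling, had 13.9, 12.6 and 16.8 CPM in the short-term libraries and 4.69, 3.56 and 3.62 CPM in the long-term libraries (log2 fold change −1.86 with SE 0.199, adjusted p = 1.32e-05 in edgeR). TCF7L1, a repressor at WNT target genes, had 1.78, 0.607 and 1.0998 CPM in the short-term libraries and 6.43, 9.45 and 11.5 CPM in the long-term libraries (log2 fold change 2.93 with SE 0.328, adjusted p = 2.00e-05 in edgeR). NOTUM, which removes the lipid from WNT ligands, had 0.683, 1.06 and 0.786 CPM in the short-term libraries and 3.08, 4.03 and 5.305 CPM in the long-term libraries (log2 fold change 2.28 with SE 0.371, adjusted p = 7.08e-04 in edgeR). These 3 genes, chosen by adjusted p within their list, did not overlap between the groups, as 25.7% of all genes did not. Of 33 WNT pathway genes 4 rose and 5 fell, where 3.17% and 4.38% of all genes did, with a median of 0.11, and the falls became 3 without long-term replicate 2. They included DKK3, a secreted protein of the Dickkopf family, from 641 ± 32.04 to 416 ± 39.3 CPM (log2 fold change −0.63).

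Of 42 genes of the TGF-beta and BMP pathway 2 rose (4.76%, near the 3.17% of all genes) and 5 fell (against 4.38%), with a median of 0.060. Beside GREM1, FSTL1, a follistatin-like secreted protein, fell from 46.6 ± 5.24 to 15.5 ± 1.195 CPM (log2 fold change −1.58 with SE 0.141, adjusted p = 1.61e-06 in edgeR) and LTBP2, a latent TGF-beta binding protein of microfibrils, from 159 ± 13.5 to 88.1 ± 19.3 CPM (log2 fold change −0.85 with SE 0.148, adjusted p = 0.00137 in edgeR). These 3 fell in all 6 fits, whereas the 5 falls became 3 without short-term replicate 1, 3 without short-term replicate 3, 3 without long-term replicate 1 and 3 without long-term replicate 2, and neither rise held in all 6. Of 37 EGF and FGF ligands and receptors 4 rose and 7 fell, with a median of −0.12. AREG, amphiregulin, a ligand of EGFR, fell from 20.5 ± 0.504 to 8.25 ± 1.17 CPM (log2 fold change −1.32 with SE 0.164, adjusted p = 5.85e-05 in edgeR), and MET, the receptor of hepatocyte growth factor, from 308 ± 28.96 to 209.5 ± 10.6 CPM (log2 fold change −0.55 with SE 0.0950, adjusted p = 0.00116 in edgeR). ERBB3, a kinase-impaired receptor of neuregulins, rose from 2.895 ± 0.713 to 7.63 ± 1.01 CPM (log2 fold change 1.41 with SE 0.241, adjusted p = 0.00116 in edgeR), and FGF18 had 4 counts short-term against 57 long-term (adjusted p by edgeR = 0.00115). The 4 rises became 2 without short-term replicate 2 and 2 without long-term replicate 3.

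Of 51 axon guidance genes 3 rose and 4 fell. NTN1, the secreted guidance cue netrin 1, had 5 counts over the short-term and 269 over the long-term libraries, 0.410, 0 and 0.314 against 8.71, 11.1 and 17.1 CPM (adjusted p by edgeR = 1.89e-05). SEMA3C, a secreted semaphorin, fell from 249.9 ± 20.3 to 173 ± 13.1 CPM (log2 fold change −0.53 with SE 0.0918, adjusted p = 0.00131 in edgeR), as did NTNG1. The 3 rises became 1 without short-term replicate 1 and 1 without short-term replicate 2, and the 4 falls 2 without short-term replicate 1, 2 without short-term replicate 2, 2 without long-term replicate 1 and 2 without long-term replicate 3. Of 34 secreted cytokines and related genes 3 rose and 5 fell. The neutrophil chemokines CXCL5 and CXCL8 (interleukin 8) fell, CXCL5 from 31.01 ± 3.698 to 12.02 ± 0.217 CPM (log2 fold change −1.37 with SE 0.163, adjusted p = 3.92e-05 in edgeR) and CXCL8 from 76.5 ± 31.2 to 24.4 ± 2.48 CPM (log2 fold change −1.64 with SE 0.294, adjusted p = 0.00239 in edgeR), although CXCL8 did not pass with no filter on low counts. The 5 falls became 3 without short-term replicate 3 and 3 without long-term replicate 1, and the 3 rises 0 without short-term replicate 1, 1 without short-term replicate 2, 1 without short-term replicate 3, 0 without long-term replicate 2 and 0 without long-term replicate 3.

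Of 62 S-phase genes 3 rose (4.84%, against 3.17% of all genes) by edgeR and 5 by DESeq2. At an unadjusted p below 0.05 in edgeR there were 14 of the 62, 13 higher and 1 lower. Of all 13959 genes tested 2705 were below that p, in either direction. By DESeq2 1061 of 16317 genes passed adjusted p, in either direction. Of 66 G2/M genes 1 rose, and of 44 CDK inhibitors and p53 targets 1 rose (TP53I11). The medians of the 3 lists were 0.083, 0.065 and 0.025. None of these 5 rises held in all 6 fits without 1 library: the S-phase count became 1 without short-term replicate 1, 0 without short-term replicate 2, 1 without short-term replicate 3 and 0 without long-term replicate 3. The cell cycle inhibitor CDKN1A, for example, had 87.6, 78.97 and 78.4 CPM in the short-term libraries and 59.1, 65.4 and 104 CPM in the long-term libraries (log2 fold change −0.10, adjusted p by edgeR = 0.833), chosen after its values were seen. Of 20 telomere maintenance genes 0 passed by edgeR or DESeq2 and 1 had an unadjusted p below 0.05, with a median of −0.012.

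Of the genes of DNA methylation and polycomb complexes, DNMT3B, a de novo DNA methyltransferase, had 19.3, 18.98 and 16.5 CPM in the short-term libraries and 42.1, 44.3 and 51.5 CPM in the long-term libraries (log2 fold change 1.33 with SE 0.164, adjusted p = 5.68e-05 in edgeR). TET2, which oxidizes methylcytosine, had 9.98, 12.1 and 12.7 CPM in the short-term libraries and 2.41, 2.63 and 1.42 CPM in the long-term libraries (log2 fold change −2.43 with SE 0.256, adjusted p = 1.04e-05 in edgeR). DNMT3B was higher and TET2 lower in every long-term library, as were 12.1% and 13.6% of all genes. TET3, of the same family as TET2, rose from 26.9 ± 3.52 to 42.9 ± 1.93 CPM (log2 fold change 0.67 with SE 0.116, adjusted p = 0.00121 in edgeR), and EZH2, the histone methyltransferase of the polycomb complex, fell from 77.96 ± 2.06 to 55.6 ± 4.34 CPM (log2 fold change −0.49 with SE 0.101, adjusted p = 0.00531 in edgeR). In all, 3 of 38 genes of DNA methylation and polycomb complexes rose and 2 fell, with a median of 0.0021, and all 5 passed in each of the 6 fits without 1 library. Of 429 zinc finger (ZNF) genes 8 rose and 10 fell, shares of 1.86% and 2.33%, below those of all genes. ZNF512B fell from 41.4 ± 1.35 to 11.99 ± 4.01 CPM (log2 fold change −1.78 with SE 0.222, adjusted p = 7.07e-05 in edgeR) and ZNF778 rose from 13.4 ± 0.887 to 37.7 ± 2.82 CPM (log2 fold change 1.49 with SE 0.141, adjusted p = 3.42e-06 in edgeR). Over the fits without 1 library the counts were 2 to 6 rises and 3 to 6 falls.

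NDRG1, a hypoxia-induced gene, rose from 30.4 ± 2.37 to 63.8 ± 18.5 CPM (log2 fold change 1.07 with SE 0.174, adjusted p = 7.42e-04 in edgeR) and the glycolytic enzyme PGAM1 from 468 ± 13.6 to 657 ± 35.8 CPM (log2 fold change 0.49 with SE 0.0867, adjusted p = 0.00155 in edgeR). Of 40 glycolysis and HIF target genes 5 rose and 1, ANGPTL4, fell, with a median of 0.13, and the rises became 2 without short-term replicate 1, 2 without short-term replicate 2, 2 without long-term replicate 2 and 3 without long-term replicate 3. Of 25 genes of cholesterol synthesis HMGCS1 rose from 202 ± 23.03 to 351 ± 6.01 CPM (log2 fold change 0.80 with SE 0.115, adjusted p = 2.44e-04 in edgeR) and TM7SF2, a sterol reductase, fell from 3.697 ± 1.09 to 0.559 ± 0.150 CPM (log2 fold change −2.71 with SE 0.363, adjusted p = 1.18e-04 in edgeR). Of 28 genes of fatty acid synthesis and storage the desaturase SCD5 rose from 14.4 ± 2.16 to 28.3 ± 5.37 CPM (log2 fold change 0.98 with SE 0.172, adjusted p = 0.00145 in edgeR) and the acyl-CoA synthetase ACSL5 fell from 5.77 ± 0.289 to 1.58 ± 0.628 CPM (log2 fold change −1.86 with SE 0.313, adjusted p = 9.50e-04 in edgeR).

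Of 39 NRF2 and oxidative stress genes 4 rose and 4 fell. AKR1C3, an aldo-keto reductase of steroids, fell from 10.4 ± 1.52 to 2.61 ± 0.422 CPM (log2 fold change −1.998 with SE 0.284, adjusted p = 2.10e-04 in edgeR). SOD3, the extracellular superoxide dismutase, fell from 2.605 ± 0.678 to 0.270 ± 0.117 CPM (log2 fold change −3.16 with SE 0.528, adjusted p = 9.19e-04 in edgeR), and the export pump ABCC3 from 8.68 ± 1.17 to 4.21 ± 0.760 CPM (log2 fold change −1.04 with SE 0.203, adjusted p = 0.00343 in edgeR). FTH1, ferritin heavy chain, rose from 607 ± 79.8 to 930.5 ± 136 CPM (log2 fold change 0.62 with SE 0.121, adjusted p = 0.00342 in edgeR). AKR1C3 and FTH1 have near-identical relatives or pseudogenes that could share reads. The 4 falls passed in all 6 fits, and the 4 rises became 2 without short-term replicate 1, 2 without long-term replicate 1 and 2 without long-term replicate 2. Metallothioneins are proteins that bind zinc and copper. Genes with metallothionein names made up 3 of the 4 falls among 27 genes of zinc handling. Whether each of them makes a protein was not tested. MT1L had 115 counts over the short-term and 0 over the long-term libraries, at least 40.7-fold lower against a floor of 3 counts over the group. MT1A had 27 and 2 counts, a ratio of 14.3 (95% interval 3.60 to 124, counting error only). MT2A had 481, 510.3 and 457 CPM in the short-term libraries and 224, 280.3 and 365 CPM in the long-term libraries, and its fall (log2 fold change −0.74 with SE 0.170, adjusted p = 0.0133 in edgeR) did not pass in 3 of the 6 fits without 1 library. The count of 4 became 2 without long-term replicate 2, and these genes are so alike that their reads may be split between them.

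Of 48 genes of ATF4 and the unfolded protein response 4 rose and 1 fell. The serine synthesis enzyme PSAT1 rose from 74.1 ± 2.94 to 103 ± 7.27 CPM (log2 fold change 0.48 with SE 0.0983, adjusted p = 0.00493 in edgeR) and the amino acid transporter chain SLC3A2 from 162 ± 11.4 to 247 ± 37.3 CPM (log2 fold change 0.61 with SE 0.132, adjusted p = 0.00752 in edgeR), the 2 that held in all 6 fits, while the count of rises became 2 without short-term replicate 1, 2 without short-term replicate 2, 2 without short-term replicate 3 and 2 without long-term replicate 3. Of 54 lysosomal genes and MiT/TFE targets 4 fell (7.41%, against 4.38% of all genes), with a median of −0.093 and 2 without short-term replicate 1. CTSL, cathepsin L, had 81.1, 89.8 and 82.01 CPM in the short-term libraries and 40.2, 44.3 and 34.5 CPM in the long-term libraries (log2 fold change −1.09 with SE 0.137, adjusted p = 6.41e-05 in edgeR), and the sterol carrier NPC2 fell from 213 ± 14.5 to 145 ± 6.14 CPM (log2 fold change −0.55 with SE 0.105, adjusted p = 0.00260 in edgeR). Of 30 immediate early genes 2 rose and 4 fell, but the rises became 0 in each fit without 1 library other than that without long-term replicate 1, where 1 was left. KLF4, a zinc finger factor of epithelial differentiation, fell from 8.61 ± 1.73 to 2.96 ± 0.823 CPM (log2 fold change −1.55 with SE 0.250, adjusted p = 6.51e-04 in edgeR), and the falls became 1 without short-term replicate 1 and 2 without short-term replicate 2. Of 34 heat shock genes 3 fell, of which DNAJB5 (from 22.9 ± 0.597 to 13.02 ± 0.746 CPM, log2 fold change −0.81 with SE 0.151, adjusted p = 0.00229 in edgeR) held in all 6 fits. TEX2, whose product transfers lipids at the endoplasmic reticulum, was the 1 rise among 10 genes listed by the names of cancer-testis antigens, and it did not pass in 4 of the 6 fits.

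Of 27 HOX genes, the factors of body axis position, 5 fell, where 4.38% of all genes fell, with a median of −0.30, and the falls became 3 without short-term replicate 1, 3 without short-term replicate 2, 3 without long-term replicate 1 and 3 without long-term replicate 2. HOXA7 (chr7:27153716-27157936) had 23.2, 20.7 and 21.5 CPM in the short-term libraries and 9.78, 10.4 and 12.3 CPM in the long-term libraries (log2 fold change −1.01 with SE 0.153, adjusted p = 4.04e-04 in edgeR). HOXA9 fell from 72.6 ± 4.61 to 39.8 ± 6.77 CPM (log2 fold change −0.86 with SE 0.134, adjusted p = 4.80e-04 in edgeR) and HOXA11 from 4.53 ± 0.400 to 2.05 ± 0.331 CPM (log2 fold change −1.15 with SE 0.255, adjusted p = 0.00871 in edgeR). These 3 held in all 6 fits. In FLCN knockdown cells the same 3 genes were higher on long culture, by 0.56, 0.40 and 0.89 log2 units (adjusted p by edgeR = 0.00557, 0.0302 and 0.00567), and the difference between the populations passed for each (adjusted p by edgeR = 4.13e-05, 1.37e-04 and 4.08e-04). HOXA7 overlaps the antisense gene HOXA-AS3, called lower as well, and HOXA9 and HOXA11 also overlap other genes of the cluster. Of the 5 falls 4 lie in 1 stretch of chromosome 7 whose genes were lower together.

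Neighbouring genes moved together over 6 long stretches of 3 chromosomes. Medians of log2 fold change were taken over each run of 41 consecutive tested genes (11887 runs), and runs past 0.3 in either direction (515) were merged. On chromosome 5, chr5:92151-55167071 (GRCh38) held 113 tested genes with a median of 0.46, of which 41 rose and 2 fell. On chromosome 14, the 174 genes of chr14:20256558-55049488 had a median of −0.39 with 39 falls and 2 rises, and the 246 genes of chr14:60709528-105530202 a median of −0.34 with 50 falls and 4 rises. On chromosome 7, 105 genes of chr7:6104884-36390125 had a median of −0.30 (20 falls), 58 genes of chr7:48035511-74890610 a median of −0.27 (5 falls) and 83 genes of chr7:76549360-100110345 a median of −0.31 (13 falls and 1 rise). Together the stretches held 779 tested genes, with 48 of the 443 rises and 129 of the 611 falls, and 7 of the 161 genes called higher (4.35%) and 18 of the 239 called lower (7.53%), beside 5.58% of all genes tested. Genes outside them had a median of 0.02. The stretches were chosen by these values, which are given as a description.

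The libraries of a group were close to each other in these stretches. Against the short-term nontarget mean, the median over the genes of the chromosome 5 stretch was −0.062, −0.055 and 0.11 log2 units in short-term and 0.45, 0.47 and 0.35 in long-term nontarget libraries. In FLCN knockdown libraries it was 0.36, 0.36 and 0.31 short-term and 0.68, 0.65 and 0.56 long-term, so short-term knockdown cells stood near long-term nontarget cells. Over all 448 genes of chromosome 14 the medians were −0.29, −0.31 and −0.33 in long-term nontarget, −0.050, −0.034 and −0.11 in short-term knockdown and −0.50, −0.45 and −0.53 in long-term knockdown libraries. Over the 603 genes of chromosome 7 they were −0.22, −0.21 and −0.23, −0.035, −0.013 and −0.044 and 0.037, 0.049 and 0.063. The lower level of chromosome 14 was thus found in both long-term groups, and that of chromosome 7 in long-term nontarget cells and not in long-term knockdown cells.

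Single genes in these stretches moved against their neighbours. NID2 and GCH1, the first enzyme of tetrahydrobiopterin synthesis, rose on chromosome 14, by 1.60 and 1.06 log2 units, and GALNT16, a glycosyltransferase, by 1.61. Other members went further than the stretch. On chromosome 14, RBM23, an RNA-binding protein, had 128, 122 and 122 CPM in the short-term libraries and 48.5, 51.7 and 40.9 CPM in the long-term libraries (log2 fold change −1.3997 with SE 0.107, adjusted p = 2.98e-07 in edgeR), HHIPL1 had 75 counts short-term and 0 long-term (at least 26.5-fold lower, against a floor of 3 counts over the group), and SLC22A17, the lipocalin-2 receptor, had 81 and 3 counts, a ratio of 28.6 (95% interval 9.46 to 142, counting error only). On chromosome 5, LPCAT1, an enzyme of phospholipid remodelling, rose from 84.97 ± 13.6 to 176 ± 35.9 CPM (log2 fold change 1.05 with SE 0.159, adjusted p = 4.66e-04 in edgeR), with CDH6 and ADAMTS12. HMGCS1 and RPL37, named with their lists, also lie in the stretch of chromosome 5. LTBP2, NPC2 and ATP5MPL lie in those of chromosome 14, and SEMA3C lies in a stretch of chromosome 7. SAMD9 and SAMD9L of the interferon list lie in the last stretch of chromosome 7. Of the 26 interferon genes that fell, these 2 were the only ones in any of the 6 stretches.

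FLCN knockdown cells grown for the same long time offered a second set of libraries, with no library in common. Same-numbered libraries of the long-term nontarget and both knockdown groups deviated together, however (correlations 0.25 to 0.71). Between long-term and short-term knockdown cells 3719 genes passed (26.6%) and 1225 were called at 2-fold (8.78%). The difference between the changes in the 2 cell populations was itself past 2-fold and adjusted p for 1040 genes (7.45%). The 239 genes called lower in nontarget cells had the same sign there in 195 cases (81.6%), and 146 of them fell there, where 15.2% of all genes fell. The 161 called higher had the same sign in 72 cases (44.7%), with 38 rising and 55 falling in knockdown cells, where 11.5% of all genes rose and 15.2% fell. Over all genes tested the signs were the same for 55.5%. The difference between the populations passed the test for 198 of the 400 genes, 101 of those higher and 97 of those lower, against 13.4% of all genes, a share that the choice of genes called in one of the contrasts raises.

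Among the named genes, some changed in the same direction in both populations. KRT19 fell from 33.7, 31.3 and 32.9 to 3.24, 3.23 and 6.11 CPM on long culture of knockdown cells (log2 fold change −2.99, adjusted p by edgeR = 3.07e-08), close to the −2.704 of nontarget cells. ATP9A (−1.93), ANGPTL4 (−2.098) and IFI44L (−1.33) also fell and ARNT2 (2.23), SRRM3 (2.198) and EMILIN2 (3.92) also rose there, with no difference past the test. With the replicate number as a block, the difference for EMILIN2 did pass (adjusted p by edgeR = 0.00481). COL5A1 had 152, 138 and 251 CPM in short-term and 199.8, 147 and 215 CPM in long-term knockdown cells (0.057, adjusted p by edgeR = 0.891), a difference between populations of 5.598 log2 units (adjusted p by edgeR = 1.24e-05).

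Several rises of nontarget cells were falls in knockdown cells. CLSTN2 went from 54.03, 60.2 and 55.9 to 0.231, 0.440 and 0.678 CPM there (−7.01, adjusted p by edgeR = 1.36e-11) and PCDH1 changed by −0.94 (adjusted p by edgeR = 0.00105). TCIM had 68 counts over the short-term and 0 over the long-term knockdown libraries, at least 23.7-fold lower, and SORL1 had 79 and 3, a ratio of 27.5 (95% interval 9.07 to 136). TET2 (0.14, adjusted p by edgeR = 0.659) and DNMT3B (−0.035, adjusted p by edgeR = 0.914) did not pass in knockdown cells, and their differences between the populations did (adjusted p by edgeR = 3.50e-05 and 8.26e-04).

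**Figure D4:**
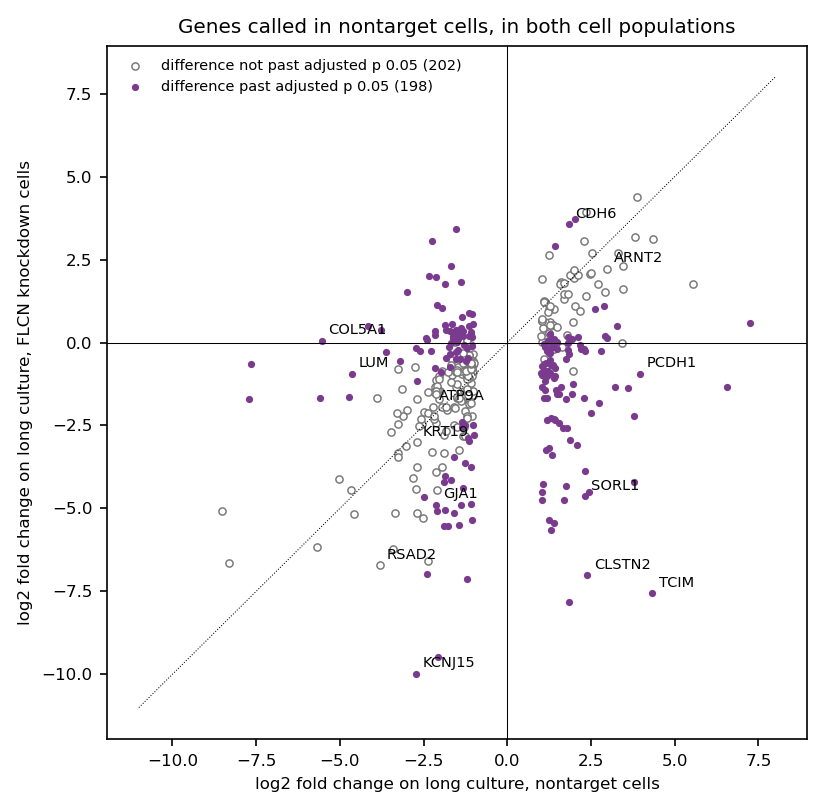
Log2 fold change on long culture in FLCN knockdown cells against that in nontarget cells, for the 400 genes called in nontarget cells, purple where the difference passed an adjusted p of 0.05 (198 genes) and open where it did not (202), with a dotted line of equality. Points of genes that fell in nontarget cells lie mostly below 0 on the vertical axis (195 of 239), whereas those of genes that rose lie on both sides (72 of 161 above 0).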

How the data were processed

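RNA was measured in 12 libraries of HK2 cells. Per the labels and the study's methods, the authors isolated polyA RNA, made TruSeq libraries for the MiSeq, trimmed the reads by fastp, mapped them with STAR and counted reads per gene with featureCounts. The submitters' processing notes name GRCh38, STAR, featureCounts and DESeq2. The annotation release, tool versions and the strand setting are not given in the sources used here. The deposited values used are the authors' raw counts of reads per gene. The deposited normalized columns (unit score) lay within 1 of the count over a library factor for at least 99.964% of values and were used for this check only. The per-library files differed from the table in 0 values.

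Names and coordinates came from GENCODE release 29 (GRCh38), with 55661 of 58288 IDs matched in the same version, 2364 in another version and 263 not matched. Promoters came from RefSeq (GRCh38.p14). In R 4.3.3, edgeR 4.0.16 kept 13959 genes by filterByExpr (99.78% of counts), used TMM factors, and fitted a robust quasi-likelihood model to all 12 libraries with a term per group and a prior count of 0.125. Tests were two-sided, adjusted by Benjamini-Hochberg, and the SE is the size of the log2 fold change over the square root of F. The steps were tested on simulated data. Intervals of ratios are exact binomial and, like the floor of 3 counts, cover counting error only. Replicates differed by more than counting error (chi-square per degree of freedom 2.15 to 12.4 within the nontarget groups, over genes of at least 20 counts), and same-numbered libraries deviated together in 9 of 9 correlations (0.25 to 0.71) among the long-term nontarget and both knockdown groups, but in 2 of 9 with the short-term nontarget group (over 0.1). The numbers thus pair the long-term nontarget and both knockdown groups, from the data and not the labels. They do not pair the short-term with the long-term nontarget libraries. The biological coefficient of variation was 11.99%.

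Genes named are the 12 largest rises and falls among called genes (adjusted p below 0.05, 2-fold) whose libraries do not overlap between groups and whose mean reaches 50 counts, the 5 rises and 5 falls of largest difference in CPM, up to 4 members of each of 36 pathway lists by adjusted p, FLCN, called genes of the chromosome stretches, and cell type markers. Some genes that met these rules are not reported here. Others are marked as chosen after their values were seen. The members and lists were chosen with earlier results of these data known, so their counts are descriptions. Alternatives were RLE factors, DESeq2 1.42.0, other filters, other fold limits, only the 6 libraries compared, a replicate block, leaving out each library, and, added after seeing the data, a prior count of 2.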

Additional observations from a re-analysis of the deposited data

Results flagged for a closer look

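The change on long culture differed between FLCN knockdown and nontarget cells for 198 of the 400 genes called in nontarget cells, at an adjusted p below 0.05 in edgeR's test of the difference itself, against 13.4% of all genes. Among 30 named genes of largest fold or largest change in CPM the difference passed for 21. The choice of genes by their change in nontarget cells, which is part of the difference, raises both shares. The values below are log2 changes in knockdown minus those in nontarget cells.

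Of the genes that rose in nontarget cells, the difference was negative for ADAMTS12 (−2.38), CLSTN2 (−9.403), LIMCH1 (−2.41), NID2 (−2.94), PCDH1 (−4.91), SMTNL2 (−5.16), ST6GALNAC5 (−1.94), UCA1 (−1.25) and WFDC21P (−1.81), and positive for CDH6 (1.72), the embryonic cadherin, which rose in both populations and further in knockdown cells. CLSTN2 stood at 257, 232 and 257 CPM in the long-term nontarget and at 0.231, 0.440 and 0.678 CPM in the long-term knockdown libraries. Of the genes that fell in nontarget cells, the difference was positive for CHRDL1 (1.41), COL5A1 (5.598), LUM (3.699), MT-RNR2 (0.96), NTNG1 (2.56) and TFPI2 (1.53), and negative, a steeper fall in knockdown cells, for GJA1 (−2.77) and GREM1 (−1.203). For TCIM (−11.88), KCNJ15 (−7.25) and SORL1 (−6.94) the fitted difference depends on the prior count, since the long-term knockdown libraries held 0, 0 and 3 counts, and it is no bound. Groups of 3 libraries were too small for a search for outlying libraries.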

How the results depend on the processing

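The 400 called genes became 398 with RLE factors, 390 with DESeq2, 469 with no filter and 407 with only the 6 libraries compared, but 112 among the 9363 genes whose mean reached 10 CPM. Fold limits of 1.5 and 2.5 gave 721 and 262, and a prior count of 2, chosen after seeing the data, 383. The 1054 genes past adjusted p became 666 at 10 CPM, and 436 and 493 genes were then called at 2-fold in knockdown cells and for the difference, in place of 1225 and 1040. Without 1 library the called genes numbered 303 to 395 and the genes past adjusted p 581 to 906, the lowest without short-term replicate 1 in both. The interferon genes that fell were 16 at 10 CPM, where fewer of them were tested. RLE factors moved the median of all genes by 0.00101 and DESeq2 by −0.0526.

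Between short-term and long-term nontarget libraries the replicate numbers did not pair the samples: the correlations of the deviations from the group means were −0.11, 0.22 and 0.0067, and 1 of 3 libraries correlated best with its own number. With the number as a replicate block, 1786 genes passed and 449 were called. In knockdown cells, where the numbers did pair the libraries, the block gave 4805 genes past adjusted p in place of 3719, and 2879 in place of 1872 for the difference. Of the values for single genes, lists and stretches over all alternatives, 4049 held, 196 kept their direction but no longer passed, 270 moved by more than the replicate spread or 1.5 times, and 0 reversed. The cause of these shifts was not tested, beyond fewer genes or libraries entering. Few reads per gene limited the values of low genes.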

Other observations

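Of 267 lincRNAs tested, 7 were called higher and 8 lower (5.62%, against 2.87% of all genes), and of 954 antisense genes 2 and 5 (0.734%), whose reads may come from the gene on the other strand. The antisense gene HOXA-AS3 of the HOXA cluster had 16.9, 14.7 and 13.4 CPM in the short-term libraries and 4.82, 4.65 and 7.89 CPM in the long-term libraries (log2 fold change −1.36 with SE 0.199, adjusted p = 2.85e-04 in edgeR), and it rose in knockdown cells (log2 fold change 0.78, adjusted p = 0.00257 in edgeR).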
